A study of Homo sapiens with 18 samples.

Results

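The 10 Polycomb genes EZH1, EZH2, SUZ12, EED, JARID2, MTF2, PHF19, RING1, BMI1 and CBX2 were picked out by gene symbol from count tables that list 28063 genes. There were 18 libraries, 2 in each of 9 groups, and newly made RNA was counted in 16 of them. They came from IMR-32, KELLY and SK-N-DZ, which are established human neuroblastoma lines with amplified MYCN. The treated groups were IMR-32, KELLY and SK-N-DZ given 1 µM BRM014, a compound that blocks the ATPase activity of the chromatin remodellers SMARCA4 and SMARCA2, and each stood against the same line given DMSO. A further treated group was SMARCA4-mAID cells, IMR-32 engineered so that SMARCA4 carries an auxin-inducible degron, given 500 µM auxin and set against the same cells given ethanol. All these cells took up 500 µM of the uridine analogue 4-thiouridine (4sU) for 2 h before harvest, and the counts are of reads that the authors' file names describe as converted. The remaining group, KELLY cells labelled "unconv" and given no 4sU, measures background. The labels give neither the length of the BRM014 or auxin exposure, nor whether the engineered cells are 1 clone. They also do not say that a group's libraries were grown apart, and the p-values then cover only the variation among these libraries, part or all of which may be technical.

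Polycomb proteins keep genes silent through a pair of complexes. Polycomb repressive complex 2 (PRC2) methylates a lysine in the tail of histone H3, with EZH2 or its relative EZH1 as the enzyme, SUZ12 and EED as the core that makes it active, and JARID2, MTF2 and PHF19 as accessory subunits that help bring it to chromatin. Polycomb repressive complex 1 (PRC1) ubiquitinates histone H2A through RING1 or its paralogue RNF2, pairs them with a PCGF protein such as BMI1, and reads the PRC2 mark through a chromobox protein such as CBX2. SWI/SNF remodellers, whose motor is SMARCA4 or SMARCA2, are known to oppose Polycomb at shared sites, and EZH2 is known in neuroblastoma as a repressor of differentiation genes.

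Labelled libraries held 724913 to 1740475 gene counts, so the lower members EZH1, EED and PHF19 carry standard errors (SE) of 0.25 to 0.30 on the log2 change after treatment, against 0.12 to 0.15 for EZH2, SUZ12, MTF2 and CBX2. The BRM014 libraries of IMR-32 held 741970 and 775064 gene counts, against 1438139 and 1148208 with DMSO. Those of SK-N-DZ held 724913 and 758288, against 1589230 and 1740475 with DMSO. Raw counts of these 2 lines are therefore not on a shared scale. The 2 unlabelled KELLY libraries held 5395 and 4432 gene counts, together 0.348% of the counts of the KELLY DMSO libraries. All members were at 0 there except JARID2, with 1 count. For EZH2 the 0 allows a background of up to 0.299% of its KELLY DMSO count and for CBX2 of up to 0.356%, on a limit of 3 counts that covers counting error only. Of 6 markers of neuroblastoma identity, 5 were present in every labelled library, with MYCN at 2524 to 12024 counts and ISL1, the lowest of the 5, at 190 to 2119, while DBH had 0 to 351. Of other cell types, the summed level of 4 Schwann cell markers was 0 to 6.90 CPM (counts scaled to a shared library total) per library, with S100B at 0 throughout, that of 3 blood cell markers 0.809 to 12.6 CPM with HBB at 0, and that of 7 mesenchymal markers 69.1 to 308 CPM. The mesenchymal sum was 269 to 308 CPM in SK-N-DZ with BRM014, against 213 to 227 CPM with DMSO, and its part in the results was not tested. Of the mesenchymal markers 4 were tested, and in SK-N-DZ 0 passed as higher and 1, PDGFRB, as lower. PDGFRB had 2 and 3 counts there with BRM014, against 36 and 19 with DMSO (edgeR, adjusted p = 0.0252). It was also lower in IMR-32, with 0 and 0 counts against 17 and 2 (edgeR, adjusted p = 0.0126).

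SUZ12 was the only one of the 9 members with a matched promoter window to hold an E2F form searched here. PHF19 fell furthest of the PRC2 genes after BRM014, and EZH2 is the enzyme. Promoter sequences are shown for these genes. Each is the 250 bases before the RefSeq start on the gene's own strand, 5′ to 3′, in build GRCh38.p14, and capitals mark a motif. The windows are chr17:31936757-31937006 on the plus strand for SUZ12, chr9:120868912-120869161 on the minus strand for PHF19 and chr7:148884292-148884541 on the minus strand for EZH2.
SUZ12: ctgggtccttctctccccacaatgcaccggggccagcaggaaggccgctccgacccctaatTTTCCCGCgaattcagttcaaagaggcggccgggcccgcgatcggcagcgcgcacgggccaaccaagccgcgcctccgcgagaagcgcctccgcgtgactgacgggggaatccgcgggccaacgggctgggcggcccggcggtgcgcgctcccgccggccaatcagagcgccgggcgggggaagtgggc
PHF19: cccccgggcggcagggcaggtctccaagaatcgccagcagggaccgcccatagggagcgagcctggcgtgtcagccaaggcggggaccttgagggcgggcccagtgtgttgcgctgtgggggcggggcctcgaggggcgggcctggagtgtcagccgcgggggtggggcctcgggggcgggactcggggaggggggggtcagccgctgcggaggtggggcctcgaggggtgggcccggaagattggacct
EZH2: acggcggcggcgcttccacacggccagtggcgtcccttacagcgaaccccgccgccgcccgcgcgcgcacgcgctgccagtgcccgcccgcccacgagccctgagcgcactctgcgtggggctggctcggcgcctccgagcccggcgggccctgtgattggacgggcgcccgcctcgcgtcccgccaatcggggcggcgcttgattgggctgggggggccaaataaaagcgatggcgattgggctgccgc
RefSeq promoters were matched for 9 of the 10 members, all but CBX2. The motifs searched on both strands were the E2F forms TTTCCCGC and TTTGGCGC and the E-box CACGTG, which do not overlap each other. The SUZ12 window holds TTTCCCGC, starting 189 bases before the start, a motif found in 1.42% of all 27305 promoter windows and in 2.23% of those of tested genes. The BMI1 window holds CACGTG 70 bases before the start, a motif found in 6.49% of all windows, and the windows of EZH1, EZH2, EED, JARID2, MTF2, PHF19 and RING1 hold none of these letters. The windows hold 34 CpG pairs for SUZ12, 21 for PHF19, 38 for EZH2 and 11 for EED, against a median of 21 over tested genes. In the GENCODE annotation the last 30 bases of the EZH2 window lie in an EZH2 exon, and the PHF19 window lies within the PHF19 gene but in no exon. Of the 250 bases of the EED window, 209 lie in EED exons, so its CpG count is largely that of exon sequence. The MTF2 window has 48 bases in MTF2 exons.

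SMARCA4 RNA was measured first, since it is the target. Inhibition and degradation act on the protein, and SMARCA4 RNA passed no test in the 4 treatment comparisons, with log2 changes of -0.26 in IMR-32, 0.08 in KELLY and -0.38 in SK-N-DZ after BRM014 and -0.35 in SMARCA4-mAID cells after auxin. Its level was 752 and 867 CPM in ethanol-treated SMARCA4-mAID cells, against 90.4 and 107 CPM in DMSO-treated IMR-32, a log2 difference of 3.04 (SE 0.14, edgeR's quasi-likelihood test, adjusted p = 3.01e-33).

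After SMARCA4 was blocked or degraded, most Polycomb genes passed no test against vehicle, and CBX2 was the member that fell in every line and after both treatments. A gene is said to rise or fall where edgeR's quasi-likelihood test across 12853 genes gave a Benjamini-Hochberg adjusted p below 0.05. RING1 did not pass the filter on low counts, so 9 of the 10 members were tested. In IMR-32 BRM014 raised 1 member and lowered 1, where 6.26% of all tested genes rose and 6.57% fell, 12.8% in all. In KELLY it raised 1 and lowered 1, where 6.57% rose and 4.98% fell, 11.6% in all. In SK-N-DZ it raised 0 and lowered 2, where 9.88% rose and 9.55% fell, 19.4% in all. Auxin in SMARCA4-mAID cells raised 0 and lowered 1, where 1.03% rose and 1.16% fell, 2.19% in all. On the mean over the 3 lines BRM014 raised 2 members and lowered 2, where 14.8% rose and 15.3% fell, 30.2% in all. Treated and vehicle libraries did not overlap for 5 members in IMR-32, 3 in KELLY, 7 in SK-N-DZ and 4 after auxin, where 50.8% of genes in IMR-32, 50.8% in KELLY, 56.3% in SK-N-DZ and 42.2% after auxin did not overlap. The median log2 change of the 9 tested members was 0.11 in IMR-32, 0.01 in KELLY, 0.20 in SK-N-DZ and -0.11 after auxin, beside medians over all tested genes of -0.02 in IMR-32, 0.00 in KELLY, -0.04 in SK-N-DZ and 0.00 after auxin.

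**Figure D1:**
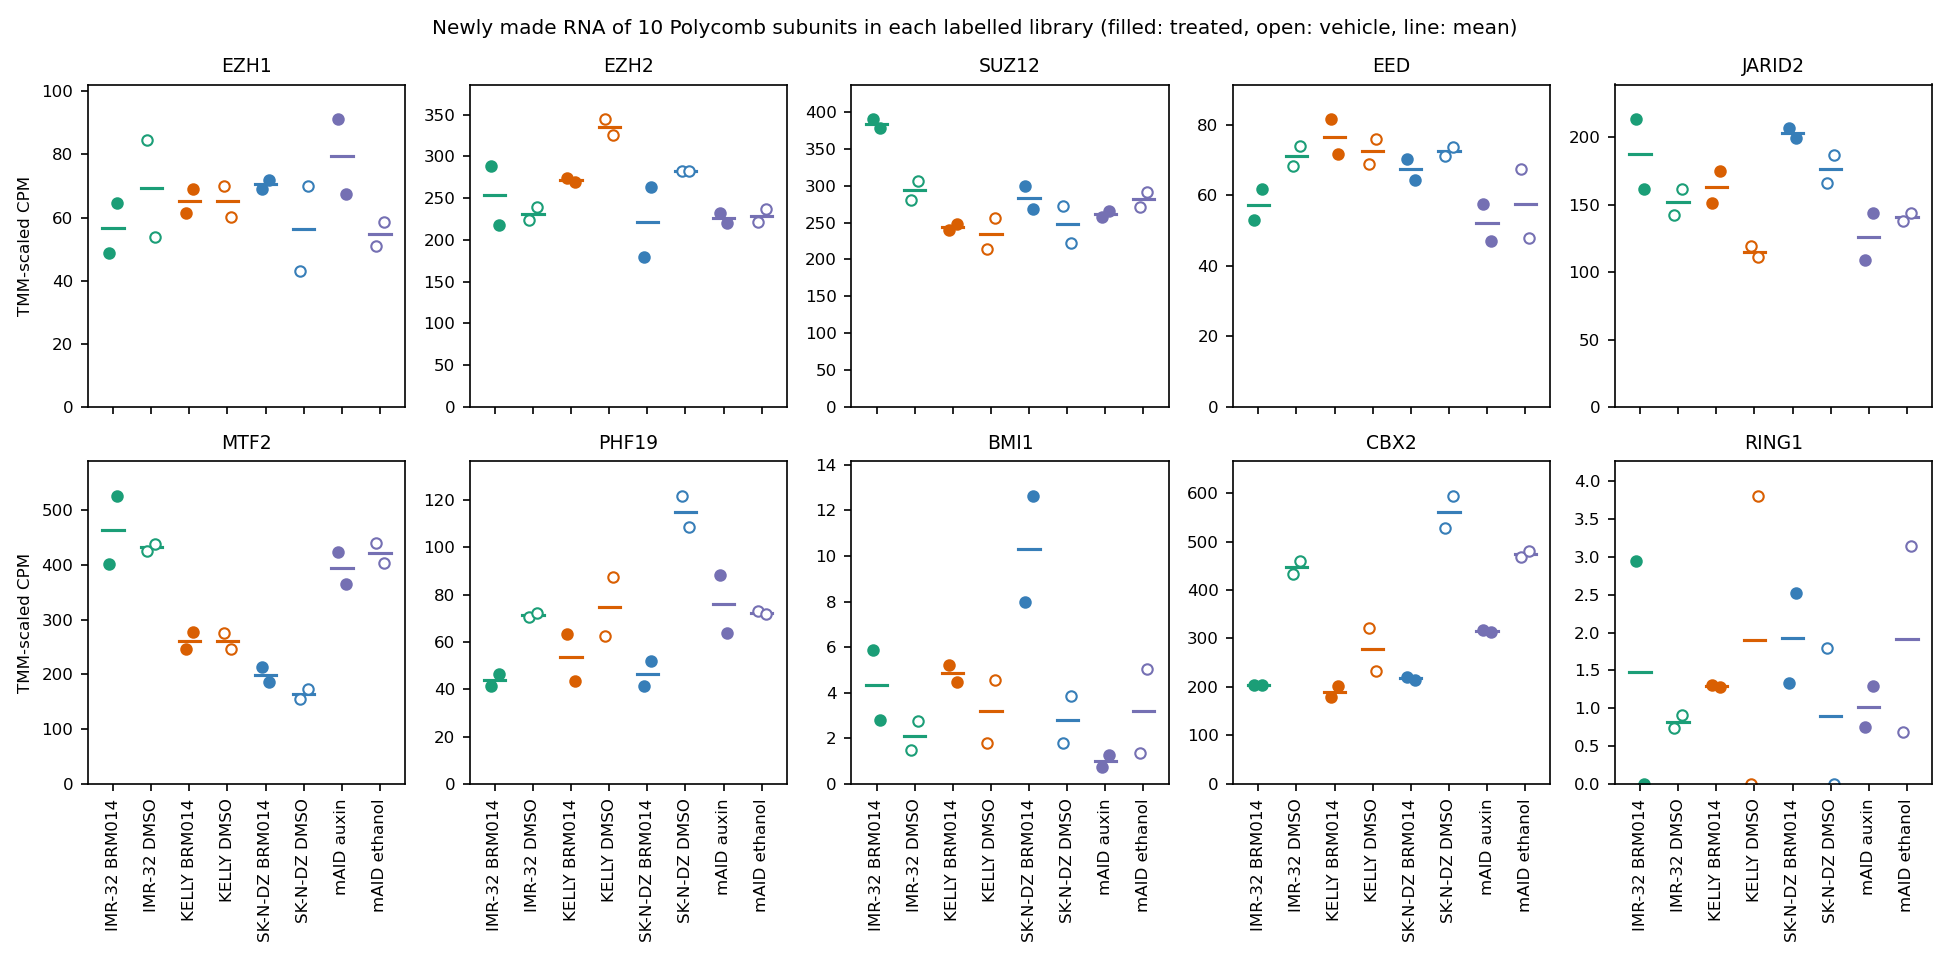
Level of each of the 10 members in every labelled library, in CPM scaled by the trimmed mean of M-values (TMM), with a linear axis from 0 in each panel; filled points are BRM014 or auxin, open points DMSO or ethanol, and the line is the mean of 2 libraries. In the CBX2 panel the treated libraries of each pair sit below the vehicle libraries, at 180 to 317 CPM against 234 to 594 CPM, while BMI1 and RING1 stay under 13 CPM.

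EZH2, the catalytic subunit of most PRC2 in dividing cells, lies on chromosome 7 from 148807383 to 148884321, minus strand (GENCODE, GRCh38). It did not pass the test in any line. It had 289 and 218 CPM in IMR-32 with BRM014, against 224 and 239 CPM with DMSO, and these groups overlapped. In KELLY it had 274 and 270 CPM with BRM014, against 345 and 326 CPM with DMSO. The KELLY groups did not overlap, and the log2 change was -0.30 (SE 0.13, edgeR, adjusted p = 0.134). In SK-N-DZ it had 179 and 264 CPM with BRM014, against 283 and 283 CPM with DMSO, a log2 change of -0.35 (SE 0.14, edgeR, adjusted p = 0.0756). The 2 BRM014 libraries of SK-N-DZ lie far apart, and without the second, EZH2 passed the test at -0.66 (edgeR, adjusted p = 0.00643). With offsets for GC content and length EZH2 also passed it in KELLY, at -0.39, and in SK-N-DZ, at -0.43. Auxin left EZH2 at 232 and 221 CPM, against 221 and 237 CPM with ethanol, a log2 change of -0.02 with a 95% interval of -0.29 to 0.25.

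EZH1, the relative of EZH2 that prevails in resting cells, was lower than EZH2 in all 16 labelled libraries. Per kilobase (kb) of exon, the ratio of EZH2 to EZH1 counts was 9.18 and 5.21 in IMR-32 with BRM014, against 4.10 and 6.84 with DMSO. It was 6.90 and 6.02 in KELLY with BRM014, against 7.59 and 8.37 with DMSO. It was 4.01 and 5.67 in SK-N-DZ with BRM014, against 10.1 and 6.25 with DMSO, so in KELLY and SK-N-DZ both treated libraries were below both vehicle libraries, and in IMR-32 they overlapped. After auxin the ratio was 3.93 and 5.05, against 6.70 and 6.26 with ethanol, again without overlap. The ratio was not tested, and it rests on EZH1 counts of 33 to 127 per library. By level, 50.8% of all tested genes in IMR-32, 50.8% in KELLY, 56.3% in SK-N-DZ and 42.2% after auxin did not overlap either. EZH1 itself passed no test, and its largest log2 change was 0.53 after auxin (SE 0.26, edgeR, adjusted p = 0.415), from 91.2 and 67.6 CPM with auxin against 51.0 and 58.5 CPM with ethanol.

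SUZ12, the scaffold of PRC2, on chromosome 17 from 31937018 to 32001045, plus strand, rose in IMR-32. It had 390 and 378 CPM with BRM014, against 281 and 307 CPM with DMSO, a log2 change of 0.39 (SE 0.13, edgeR, adjusted p = 0.0389). In KELLY it had 240 and 248 CPM with BRM014, against 214 and 256 CPM with DMSO, and in SK-N-DZ 299 and 269 CPM with BRM014, against 273 and 223 CPM with DMSO, and the groups of both lines overlapped. The IMR-32 call held in 5 of 13 alternatives, and was lost on leaving out any of the 4 IMR-32 libraries (0.33 to 0.45) and with GC and length offsets (0.16). The mean over the lines was 0.22 (SE 0.08, edgeR, adjusted p = 0.0239), passed in 12 of 21 alternatives and turned to -0.06 with those offsets. After auxin SUZ12 had 258 and 265 CPM, against 271 and 292 CPM with ethanol, and the change of -0.11 did not pass the test.

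EED, which binds the methylated histone tail and activates the enzyme, passed no test. It had 53.0 and 61.8 CPM in IMR-32 with BRM014, against 68.4 and 74.1 CPM with DMSO. In KELLY it had 81.7 and 71.7 CPM with BRM014, against 68.9 and 76.1 CPM with DMSO. In SK-N-DZ it had 70.5 and 64.4 CPM with BRM014, against 71.3 and 73.8 CPM with DMSO, and after auxin 57.6 and 47.0 CPM, against 67.5 and 47.8 CPM with ethanol. Its 4 log2 changes lay between -0.31 and 0.08, each with an SE of 0.25 to 0.28.

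JARID2, the accessory subunit that guides PRC2 in the form known as PRC2.2, rose in KELLY. The gene lies on chromosome 6 from 15246296 to 15522040, plus strand. It had 152 and 175 CPM with BRM014, against 119 and 111 CPM with DMSO, a log2 change of 0.50 (SE 0.17, edgeR, adjusted p = 0.0359). In IMR-32 it had 214 and 162 CPM with BRM014, against 143 and 162 CPM with DMSO, with overlap. In SK-N-DZ it had 207 and 200 CPM with BRM014, against 166 and 187 CPM with DMSO, which do not overlap, with a log2 change of 0.21 that did not pass the test. The mean over lines was 0.34 (SE 0.10, edgeR, adjusted p = 0.00539), and it passed in 20 of 21 alternatives, the exception being 0.26 without the first IMR-32 BRM014 library (edgeR, adjusted p = 0.0564). In KELLY alone the call held in 7 of 13 alternatives and was lost without the second BRM014 library (0.39) or without either DMSO library (0.56 and 0.45). The difference in JARID2 effect between lines passed no test, and neither did its change of -0.15 after auxin.

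MTF2 and PHF19 are alternative Polycomb-like subunits that bind CpG-rich DNA. MTF2 passed no treatment test, with log2 changes of 0.11 in IMR-32, 0.01 in KELLY, 0.28 in SK-N-DZ and -0.10 after auxin. In SK-N-DZ MTF2 had 213 and 186 CPM with BRM014, against 155 and 172 CPM with DMSO, which do not overlap (SE 0.14, edgeR, adjusted p = 0.168). PHF19, on chromosome 9 from 120855652 to 120894896, minus strand, fell in SK-N-DZ. It had 41.2 and 51.8 CPM with BRM014, against 122 and 109 CPM with DMSO, which is 40.6% of the DMSO level and a log2 change of -1.30 (SE 0.27, edgeR, adjusted p = 1.35e-04). In IMR-32 PHF19 had 41.3 and 46.4 CPM with BRM014, against 70.6 and 72.3 CPM with DMSO. Those groups did not overlap, and the log2 change of -0.70 did not pass the test (SE 0.30, edgeR, adjusted p = 0.107). In KELLY it had 63.4 and 43.5 CPM with BRM014, against 62.4 and 87.5 CPM with DMSO, with overlap. The mean over lines was -0.83 (SE 0.16, edgeR, adjusted p = 1.48e-05), the only PRC2 member to fall on that measure. Auxin gave 88.2 and 63.7 CPM, against 73.0 and 71.7 CPM with ethanol, a log2 change of 0.07 with a 95% interval of -0.42 to 0.55. The BRM014 effect minus the auxin effect in IMR-32 was -0.77 for PHF19 (SE 0.39, edgeR, adjusted p = 0.403), so a difference between the treatments was not shown. With GC and length offsets the SK-N-DZ change was -0.78 and the mean -0.43, and both still passed.

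**Figure D2:**
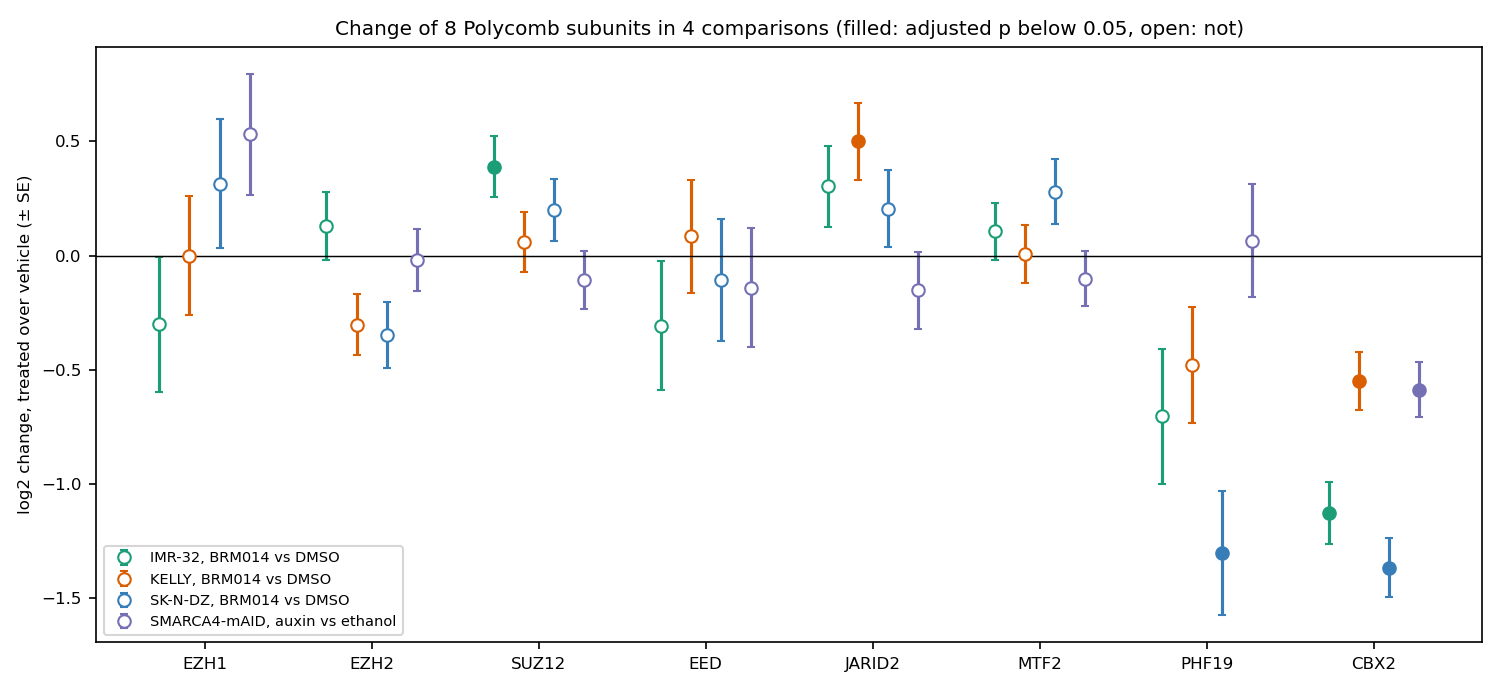
Log2 change, treated over vehicle, of the 8 members with enough counts, with bars of 1 SE from the edgeR fit; filled points passed the test and open points did not. CBX2 is filled in all 4 comparisons, between -0.55 and -1.37, PHF19 in SK-N-DZ, SUZ12 in IMR-32 and JARID2 in KELLY, and the points of EZH1, EZH2, EED and MTF2 are open throughout.

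CBX2 had the largest change among the members that passed the test after BRM014 in each line, and was the only member to pass after auxin. Its lead was not tested, and lay within the SE in KELLY (JARID2, 0.50, SE 0.17) and SK-N-DZ (PHF19, -1.30, SE 0.27). With GC and length offsets PHF19 changed more than CBX2 in SK-N-DZ. CBX2 lies on chromosome 17 from 79778132 to 79787983, plus strand, in the GENCODE annotation of GRCh38. The chromobox protein CBX2 anchors canonical PRC1 to chromatin that PRC2 has marked and can compact it. It had 203 and 205 CPM in IMR-32 with BRM014, against 434 and 459 CPM with DMSO, which is 45.8% of the DMSO level and a log2 change of -1.13 (SE 0.14, edgeR, adjusted p = 1.89e-10). In SK-N-DZ it had 221 and 215 CPM with BRM014, against 528 and 594 CPM with DMSO, which is 38.8% and -1.37 (SE 0.13, edgeR, adjusted p = 6.47e-15). In KELLY it had 180 and 201 CPM with BRM014, against 321 and 234 CPM with DMSO, which is 68.3% and -0.55 (SE 0.13, edgeR, adjusted p = 8.99e-04). In SMARCA4-mAID cells it had 317 and 314 CPM with auxin, against 467 and 481 CPM with ethanol, which is 66.6% and -0.59 (SE 0.12, edgeR, adjusted p = 7.32e-04). On the mean over lines the change was -1.01 (SE 0.08, edgeR, adjusted p = 6.88e-21), and -0.45 with GC and length offsets (edgeR, adjusted p = 6.13e-07). All treated libraries were below the vehicle libraries of their pair, and the 2 libraries of a group lay close together except in KELLY with DMSO.

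CBX2 ranged over 180 to 221 CPM in the BRM014 libraries of the 3 lines, against 234 to 594 CPM in their DMSO libraries, and BRM014 levels were not tested between lines. The change in SK-N-DZ minus that in KELLY was -0.82 (SE 0.18, edgeR, adjusted p = 0.00165), the only test of a difference between effects that a member passed, where 3.9% of genes did. KELLY minus IMR-32 was 0.58 (SE 0.19, edgeR, adjusted p = 0.0691), where 3.28% of genes passed, and it did pass at 0.83 without the first KELLY DMSO library (edgeR, adjusted p = 0.00669). SK-N-DZ minus IMR-32 was -0.24 (SE 0.19, edgeR, adjusted p = 0.656), where 2.61% passed. The BRM014 effect minus the auxin effect in IMR-32 was -0.54 (SE 0.18, edgeR, adjusted p = 0.114), where 1.95% passed, with a 95% interval of -0.90 to -0.18.

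Summed over its annotated transcripts, CBX2 is 60.8% G or C, the highest share of the tested members. It is 19.7% T, the base that 4sU replaces, against 38.1% G or C and 30.2% T for SUZ12. With offsets for GC content and length the CBX2 change shrank to -0.60 in IMR-32, -0.63 in SK-N-DZ and -0.47 after auxin, which still passed, and to -0.12 in KELLY, which did not (edgeR, adjusted p = 0.665). The difference between SK-N-DZ and KELLY was then -0.51 and no longer passed (edgeR, adjusted p = 0.0955). Leaving out the first KELLY DMSO library took the KELLY change to -0.29 (edgeR, adjusted p = 0.313), and leaving out the second took the difference between SK-N-DZ and KELLY to -0.61 (edgeR, adjusted p = 0.0613).

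**Figure D3:**
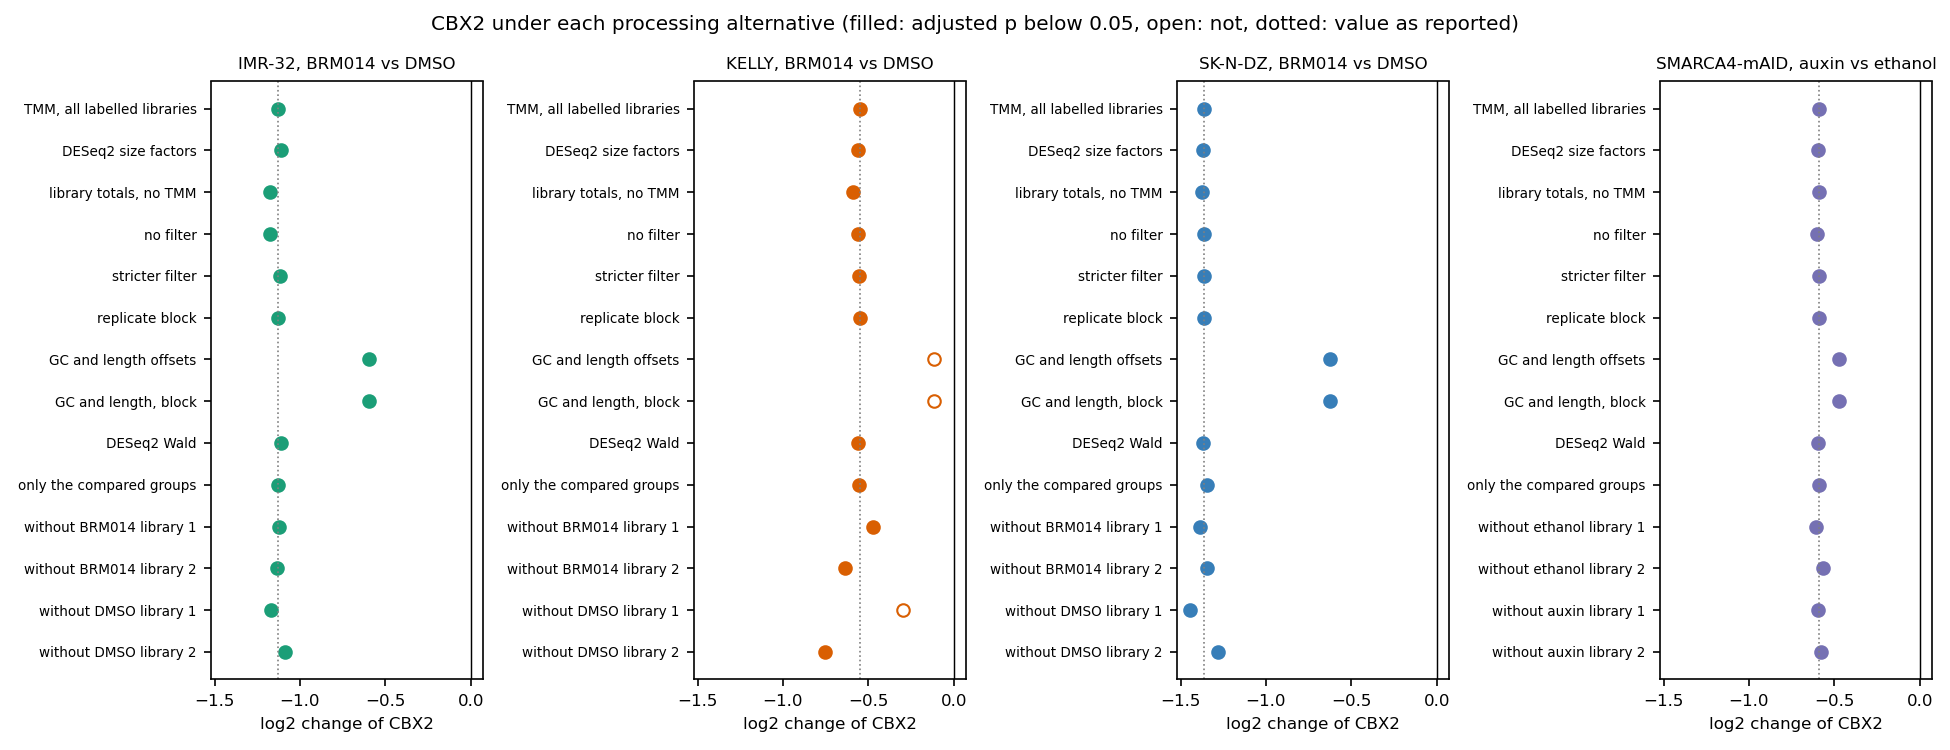
Log2 change of CBX2 in each treatment comparison as reported (top row, dotted line) and under each of 13 processing alternatives; filled points passed the test and open points did not. All values are below 0, those with GC and length offsets lie nearest to 0, at -0.60 in IMR-32, -0.12 in KELLY, -0.63 in SK-N-DZ and -0.47 after auxin, and the open points are all in KELLY.

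RING1 and BMI1, the other members of PRC1, had few counts in every labelled library. Whether little of their RNA was made or reads were lost in counting was not tested. RING1, a ubiquitin ligase of PRC1, had 0 to 5 counts per library and was not tested. Its paralogue RNF2, which was picked for comparison after its values were seen, had a level of 22.6 ± 1.14 to 39.4 ± 2.46 CPM per kb over the 8 groups (SD, n = 2 each), against 0.454 to 1.06 CPM per kb for RING1. BMI1 passed the filter with 1 to 10 counts per library. In SK-N-DZ it had 6 and 10 counts with BRM014 against 3 and 7 with DMSO, a log2 change of 1.82 with an SE of 1.06 that did not pass the test. The GENCODE annotation has the read-through gene COMMD3-BMI1 share 1000 bases, 23.3%, of the BMI1 exons, and reads there could have been left uncounted or assigned to either gene.

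In vehicle-treated cells the order of levels per kb was nearly shared by the lines. CBX2, MTF2, EZH2, SUZ12 and JARID2 were the 5 highest members in all 4 vehicle groups, PHF19, EED and EZH1 followed, and BMI1 and RING1 came last. In SK-N-DZ with DMSO CBX2 led with 98.6 ± 8.15 CPM per kb, then EZH2 with 62.6 ± 0.0661, SUZ12 with 37.8 ± 5.40, JARID2 with 29.3 ± 2.45 and MTF2 with 27.7 ± 2.07 (SD, n = 2 each). The libraries of JARID2 and MTF2 overlapped there, and those of the other neighbours in this order did not. In KELLY with DMSO EZH2 led with 74.1 ± 3.0 CPM per kb, then CBX2 with 48.8 ± 10.9 and MTF2 with 44.0 ± 3.46, which overlap, and SUZ12 with 35.9 ± 4.57 (SD, n = 2 each). In IMR-32 with DMSO CBX2 had 78.5 ± 3.19 CPM per kb, MTF2 73.0 ± 1.60, EZH2 51.2 ± 2.28, SUZ12 44.9 ± 2.78 and JARID2 25.3 ± 2.27 (SD, n = 2 each), and their libraries did not overlap. PHF19, EED and EZH1 lay between 7.83 and 17.1 CPM per kb in these groups, and in IMR-32 and KELLY their libraries overlapped.

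**Figure D4:**
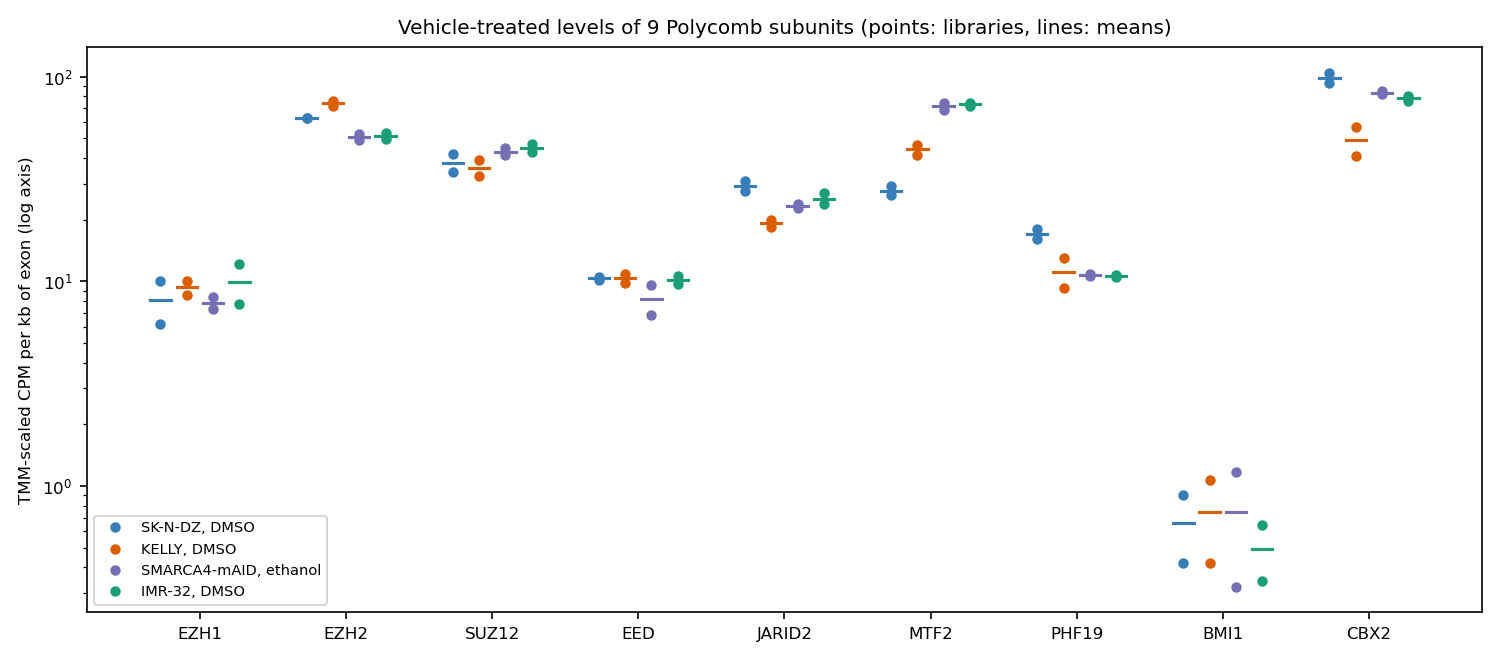
Level per kb of exon, on a log axis, of the 9 tested members in the vehicle groups; points are libraries and lines are means of 2, with SK-N-DZ, KELLY and SMARCA4-mAID to the left of IMR-32. MTF2 steps up through SK-N-DZ, KELLY and IMR-32 at 27.7, 44.0 and 73.0 CPM per kb, while EED stays between 8.22 and 10.3.

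MTF2 separated the lines most among the PRC2 genes. It had 155 and 172 CPM in SK-N-DZ, 275 and 246 CPM in KELLY and 425 and 438 CPM in IMR-32, all with DMSO, and no 2 lines overlapped. It was lower in SK-N-DZ than in IMR-32 by a log2 difference of -1.40 (SE 0.13, edgeR, adjusted p = 1.68e-16), in KELLY than in IMR-32 by -0.73 (SE 0.12, edgeR, adjusted p = 8.24e-07), and in SK-N-DZ than in KELLY by -0.67 (SE 0.13, edgeR, adjusted p = 1.57e-05). These 3 differences passed in all 13 alternatives each. In KELLY against IMR-32, 1 member was higher and 3 were lower, where 18.1% of genes were higher and 21.6% lower, 39.6% in all. In SK-N-DZ against IMR-32, 2 were higher and 1 was lower, where 21.2% were higher and 22.9% lower, 44.1% in all. In SK-N-DZ against KELLY, 3 were higher and 1 was lower, where 16.6% were higher and 15.2% lower, 31.8% in all. These comparisons share their DMSO libraries with each other and with the BRM014 comparisons.

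EZH2 was higher in KELLY, at 345 and 326 CPM, than in IMR-32, at 224 and 239 CPM, by 0.54 (SE 0.14, edgeR, adjusted p = 8.16e-04), in all 13 alternatives. CBX2 was higher in SK-N-DZ than in KELLY by 1.01 (SE 0.12, edgeR, adjusted p = 1.68e-11). CBX2 was also lower in KELLY than in IMR-32 by -0.68 (SE 0.12, edgeR, adjusted p = 2.54e-06), and both of these differences passed in all 13 alternatives. Their size depended on the processing, since SK-N-DZ against KELLY was 0.50 with GC and length offsets, and KELLY against IMR-32 was -1.34 with those offsets. CBX2 in SK-N-DZ against IMR-32 depended on the processing, at 0.33 (SE 0.12, edgeR, adjusted p = 0.0160) as fitted and -0.84 with GC and length offsets (edgeR, adjusted p = 1.10e-09), so no order of SK-N-DZ and IMR-32 is given. JARID2 had 166 and 187 CPM in SK-N-DZ, against 119 and 111 CPM in KELLY, a difference of 0.61 (SE 0.17, edgeR, adjusted p = 0.00216) that passed in all alternatives run. PHF19 was higher in SK-N-DZ, at 122 and 109 CPM, than in IMR-32, at 70.6 and 72.3 CPM, by 0.69 (SE 0.24, edgeR, adjusted p = 0.0160), but the difference was -0.02 with GC and length offsets. Against KELLY, at 62.4 and 87.5 CPM, PHF19 in SK-N-DZ was higher by 0.63 (SE 0.24, edgeR, adjusted p = 0.0341), in 7 of 13 alternatives. SUZ12 in KELLY against IMR-32 was -0.32 (SE 0.13, edgeR, adjusted p = 0.0401), a call that held in 4 of 13 alternatives and was 0.04 with those offsets. EZH1 and EED passed no test between lines.

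No member was shown to differ between the engineered SMARCA4-mAID cells and their parent line. With ethanol, 0 of the 9 tested members differed from IMR-32 with DMSO, by edgeR at the adjusted threshold, by DESeq2 and also at an unadjusted p below 0.05, where 6.16% of genes differed. CBX2 had 467 and 481 CPM in SMARCA4-mAID cells with ethanol, against 434 and 459 CPM in IMR-32 with DMSO, a log2 difference of 0.09 with a 95% interval of -0.14 to 0.32. For EZH2 the difference was -0.01, with an interval of -0.29 to 0.26.

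Other genes of the 2 complexes moved singly. Of 8 further PRC2 genes 6 were tested. AEBP2, the partner of JARID2 in PRC2.2, rose in IMR-32, with 374 and 316 CPM with BRM014 against 230 and 167 CPM with DMSO (log2 change 0.79, SE 0.16, edgeR, adjusted p = 1.09e-04), in all 13 alternatives. AEBP2 also rose in SK-N-DZ by 0.49 (SE 0.17, edgeR, adjusted p = 0.0259), a call that held in 7 of 13 alternatives. It was lost with GC and length offsets, at 0.20, and on leaving out any SK-N-DZ library. LCORL, which encodes a PRC2.1 cofactor, fell in KELLY by 0.54 on the log2 scale (SE 0.17, edgeR, adjusted p = 0.0236), in 10 of 13 alternatives, and not without either BRM014 library or the first DMSO library. After auxin 0 of the 6 passed by edgeR, by DESeq2 or at an unadjusted p below 0.05. The median log2 change of the 6 was 0.17 in IMR-32, 0.19 in KELLY, 0.14 in SK-N-DZ and -0.05 after auxin. With GC and length offsets it was -0.05 in IMR-32, -0.14 in KELLY, -0.10 in SK-N-DZ and -0.11 after auxin. The sign of the median after BRM014 therefore depended on the processing. Of all tested genes, 12.8% passed in IMR-32, 11.6% in KELLY, 19.4% in SK-N-DZ and 2.19% after auxin.

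Of 24 further PRC1 genes, all tested, BRM014 raised 1 and lowered 1 in IMR-32, raised 2 and lowered 0 in KELLY, and raised 3 and lowered 4 in SK-N-DZ, and auxin lowered 1. Their median log2 change was -0.04 in IMR-32, 0.03 in KELLY, -0.13 in SK-N-DZ and -0.03 after auxin, beside the medians of all genes given above. With GC and length offsets it was 0.11 in IMR-32, 0.01 in KELLY, 0.13 in SK-N-DZ and -0.04 after auxin. The counts stand beside 12.8% of all tested genes passing in IMR-32, 11.6% in KELLY, 19.4% in SK-N-DZ and 2.19% after auxin. YAF2, a subunit of variant PRC1 that takes the place of a chromobox protein, rose in the 3 lines, by 0.78 in IMR-32 (SE 0.21, edgeR, adjusted p = 0.00594), 0.70 in KELLY (SE 0.20, edgeR, adjusted p = 0.0121) and 0.83 in SK-N-DZ (SE 0.20, edgeR, adjusted p = 0.00127). It had 178 and 164 CPM with BRM014 in IMR-32, against 107 and 92.4 CPM with DMSO. In KELLY it had 143 and 95.4 CPM with BRM014, against 68.3 and 78.3 CPM with DMSO, and in SK-N-DZ 154 and 178 CPM with BRM014, against 101 and 86.5 CPM with DMSO, so all treated libraries were above the vehicle libraries of their line. YAF2 transcripts are 40.4% G or C, and with GC and length offsets these 3 calls were lost, at 0.59 in IMR-32, 0.38 in KELLY and 0.51 in SK-N-DZ. The IMR-32 call was also lost without the first BRM014 or the second DMSO library, and the KELLY call without the first BRM014 or the first DMSO library.

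PCGF5 and PCGF1, which each define a variant PRC1, fell in SK-N-DZ. PCGF1 had 158 and 112 CPM with BRM014, against 255 and 264 CPM with DMSO, a log2 change of -0.94 (SE 0.17, edgeR, adjusted p = 8.57e-06) that passed in all 13 alternatives. PCGF5 fell by 1.76 on the log2 scale in SK-N-DZ (SE 0.54, edgeR, adjusted p = 0.0114), on 6 and 3 counts with BRM014 against 31 and 39 with DMSO. In IMR-32 PCGF5 fell by 1.02 on the log2 scale (SE 0.35, edgeR, adjusted p = 0.0413), on 18 and 33 counts with BRM014 against 86 and 94 with DMSO. The PCGF5 calls were lost without the second BRM014 or second DMSO library of SK-N-DZ, and without the first BRM014 or either DMSO library of IMR-32. The other calls in SK-N-DZ were PHC3 at 0.56, RNF2 at 0.57, BCOR at -0.38 and KDM2B at -0.56, of which PCGF5, RNF2 and KDM2B were named after their values were seen. The calls held in 11 of 13 alternatives for PHC3, 8 for RNF2, 9 for BCOR and 7 for KDM2B. Those of all 4 were lost with GC and length offsets. The list of 24 then had 3 higher and 3 lower in SK-N-DZ and 3 higher and 1 lower in IMR-32. In KELLY it had 0 higher and 1 lower. With those offsets some calls were therefore replaced by calls of other genes of the list. On leaving out the second BRM014 or the second DMSO library of SK-N-DZ the count there was 2 higher and 1 lower. MGA rose in KELLY by 0.38, in 7 of 13 alternatives and at 0.00 with those offsets, and AUTS2, a partner of PCGF5, fell after auxin by 0.51 on the log2 scale (SE 0.12, edgeR, adjusted p = 0.00620), a call lost on leaving out any of those 4 libraries. Of the chromobox relatives of CBX2, CBX6, CBX7 and CBX8 passed no test in the 4 comparisons.

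**Figure D5:**
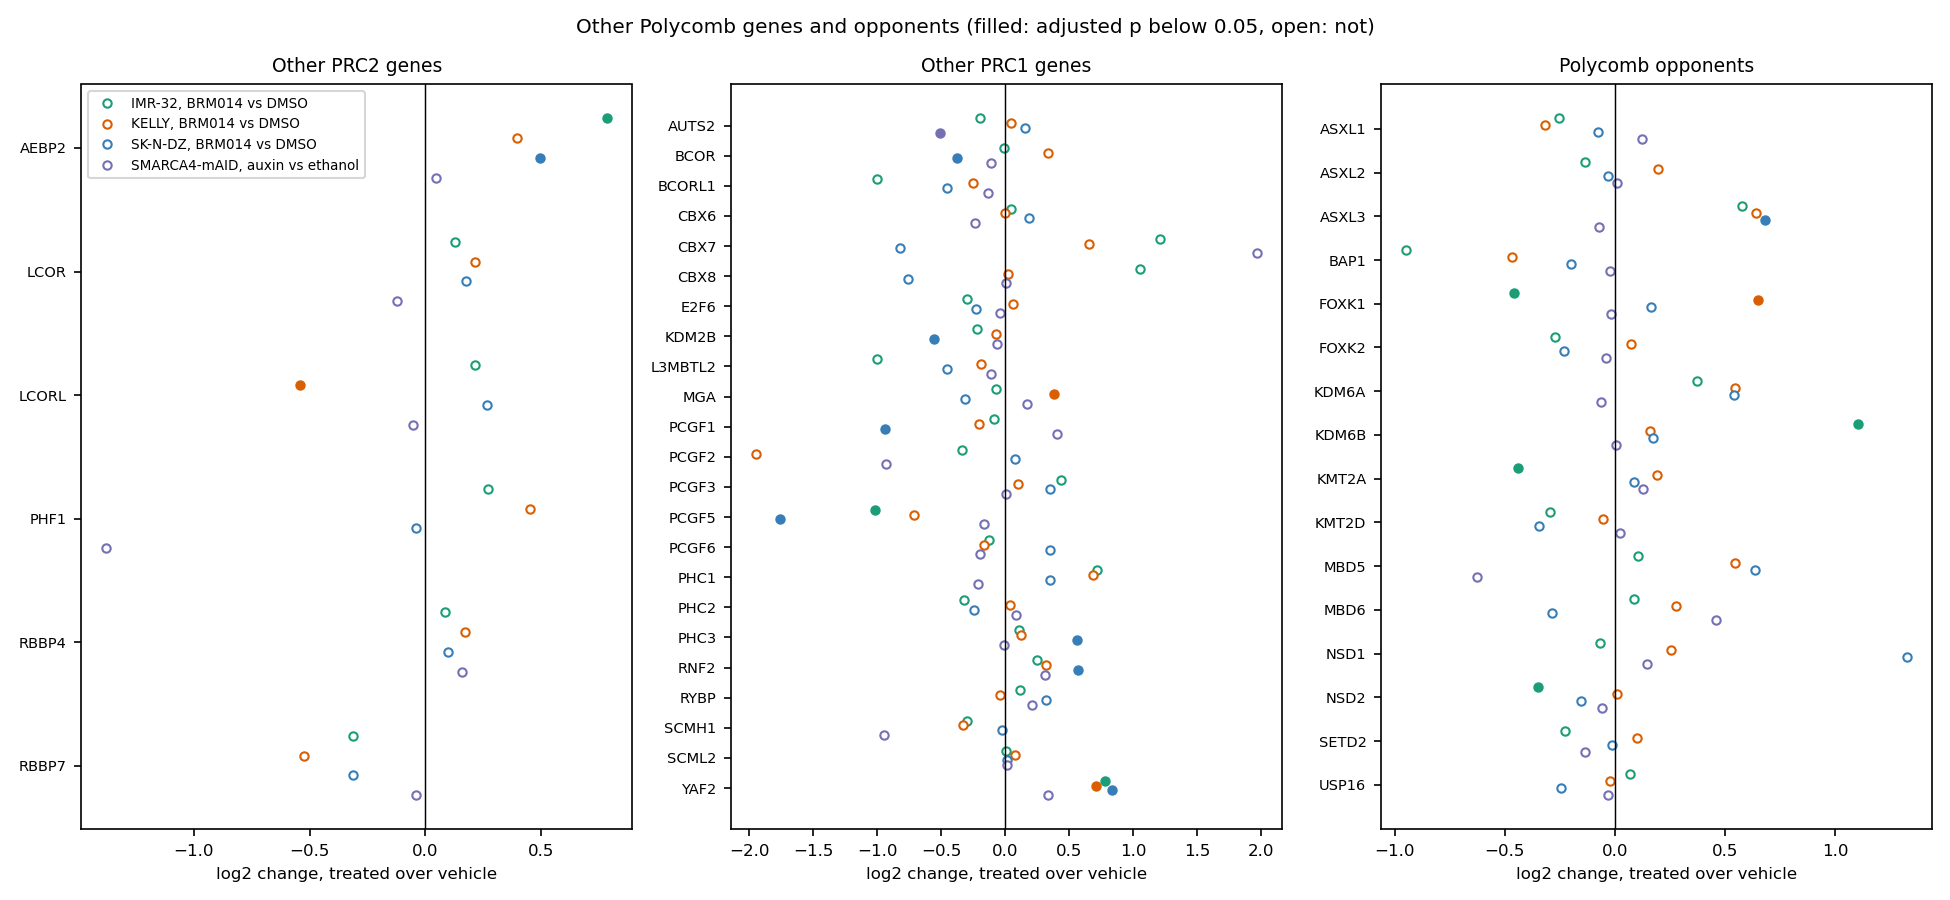
Log2 change, treated over vehicle, of the tested further PRC2 genes (6), further PRC1 genes (23 of the 24) and genes that oppose Polycomb (16), 1 row per gene and 1 colour per comparison; filled points passed the test and open points did not. YAF2 is filled right of 0 in the 3 BRM014 comparisons, at 0.70 to 0.83, PCGF5 is filled left of 0 in IMR-32 and SK-N-DZ, and most points are open.

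Among 16 genes that oppose Polycomb, such as demethylases of its histone mark and trithorax methyltransferases, BRM014 raised 1 and lowered 3 in IMR-32, raised 1 in each of the other lines, and auxin changed 0, by edgeR and also at an unadjusted p below 0.05. Their median log2 change was -0.18 in IMR-32, 0.17 in KELLY, -0.02 in SK-N-DZ and -0.02 after auxin. With GC and length offsets it was -0.08 in IMR-32, 0.02 in KELLY, 0.27 in SK-N-DZ and 0.07 after auxin. Among all tested genes the share that passed was 12.8% in IMR-32, 11.6% in KELLY, 19.4% in SK-N-DZ and 2.19% after auxin. KDM6B, a demethylase that removes the PRC2 mark, rose in IMR-32, with 57.5 and 66.0 CPM with BRM014 against 33.8 and 22.9 CPM with DMSO (log2 change 1.10, SE 0.31, edgeR, adjusted p = 0.00764). KMT2A, a trithorax methyltransferase, fell there by 0.44 on the log2 scale (SE 0.12, edgeR, adjusted p = 0.00505). FOXK1, a partner of the BAP1 deubiquitinase, rose in KELLY by 0.65 (SE 0.13, edgeR, adjusted p = 5.41e-05). It fell in IMR-32 by 0.46 on the log2 scale (SE 0.15, edgeR, adjusted p = 0.0334), a call that held in 6 of 13 alternatives. The IMR-32 call was lost with GC and length offsets, at -0.05, with only the compared groups, and on leaving out any IMR-32 library. The KDM6B call was lost without the second BRM014 or second DMSO library, and the KMT2A call without the second BRM014 or first DMSO library. NSD2 changed by -0.35 in IMR-32 (edgeR, adjusted p = 0.0302), a call that held in 7 of 13 alternatives, and ASXL3 by 0.68 in SK-N-DZ (edgeR, adjusted p = 0.0178), held in 9 of 13.

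The genes CASZ1, CLU, NGFR and RUNX3 are known from neuroblastoma as silenced by EZH2, and most of their counts here were low. CASZ1, a zinc finger factor, had 0 and 0 counts in IMR-32 with BRM014, against 5 and 11 with DMSO. It passed the test there (edgeR, adjusted p = 0.0227). With the BRM014 group set at a floor of 3 counts it was 3.02-fold lower, with no allowance for error in the DMSO count. The call held in 7 of 13 alternatives. It was lost with GC and length offsets, with only the compared groups, and without either BRM014 library or the second DMSO library. In KELLY CASZ1 had 33 and 46 counts with BRM014, against 66 and 47 with DMSO, which did not pass. In SK-N-DZ it had 9 and 0 counts with BRM014, against 16 and 19 with DMSO. In SMARCA4-mAID cells it had 3 and 10 counts with auxin, against 19 and 18 with ethanol. Scaled to library size, the ratio of ethanol to auxin was 2.70, with an exact 95% counting interval of 1.41 to 5.55. Neither comparison passed the test. CLU, which encodes clusterin, had 0 and 3 counts in KELLY with BRM014, against 22 and 18 with DMSO, a ratio of DMSO to BRM014 of 13.8 with an exact 95% counting interval of 4.4 to 69.9 (edgeR, adjusted p = 0.0211), a call lost without the first BRM014 library or either DMSO library. CLU had 2 and 0 counts in SK-N-DZ with BRM014, against 19 and 26 with DMSO, and that ratio was 9.97 with an interval of 2.60 to 84.8, and it did not pass the test (edgeR, adjusted p = 0.0576), but did without the filter on low counts (edgeR, adjusted p = 0.0461). In IMR-32 CLU had 2 and 2 counts with BRM014, against 4 and 3 with DMSO. Scaled to library size, that ratio of DMSO to BRM014 was 0.99, with an interval of 0.25 to 4.62. In SMARCA4-mAID cells CLU had 3 and 0 counts with auxin, against 0 and 3 with ethanol. The scaled ratio of ethanol to auxin was 0.95, with an interval of 0.13 to 7.10. NGFR, the low-affinity neurotrophin receptor, did not pass the filter, and had 0, 0, 0 and 1 counts in the BRM014 libraries of IMR-32 and KELLY, against 7, 6, 4 and 5 with DMSO. It had 0 and 0 counts in SK-N-DZ with BRM014, against 10 and 13 with DMSO. In SMARCA4-mAID cells it had 0 and 0 counts with auxin, against 4 and 3 with ethanol. Scaled to library size, with the treated group set at a floor of 3 counts, NGFR was 2.46-fold lower in IMR-32 and 3.40-fold in SK-N-DZ. After auxin it was 2.22-fold lower on that floor. Error in the vehicle counts was not allowed for in these folds. In KELLY the scaled ratio of DMSO to BRM014 was 9.33, with an interval of 1.29 to 409. Without the filter NGFR passed no test in the 4 treatment comparisons. RUNX3 had 0 to 2 counts per library.

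Of 30 DNA replication and E2F target genes, all of them tested, some fell in each of the 4 treatment comparisons, as CBX2 did, while PHF19 passed the test among these 4 only in SK-N-DZ. BRM014 lowered 20 of the 30 in IMR-32, 16 in KELLY and 27 in SK-N-DZ, auxin lowered 3, and none of these comparisons raised any. Their median log2 change was -0.85 in IMR-32, -0.58 in KELLY, -1.12 in SK-N-DZ and -0.26 after auxin. Of all tested genes, 6.57% fell in IMR-32, 4.98% in KELLY, 9.55% in SK-N-DZ and 1.16% after auxin. UHRF1, which links DNA methylation to replication, had 45.2 and 61.9 CPM in SK-N-DZ with BRM014, against 261 and 272 CPM with DMSO (log2 change -2.31, SE 0.20, edgeR, adjusted p = 2.05e-16). UHRF1 also fell after auxin, by 0.83 on the log2 scale (SE 0.17, edgeR, adjusted p = 7.32e-04), a call lost without the first ethanol library. The part of these genes in the result for CBX2 and PHF19 was not tested, and in bulk libraries fewer cells in a state and less RNA per cell cannot be told apart. With GC and length offsets the list had 15 lower in IMR-32, 10 in KELLY and 19 in SK-N-DZ. In KELLY 9 were lower without the first BRM014 library and 10 without the second DMSO library. After auxin 1 was lower without the second auxin library or either ethanol library, and 5 with only the compared groups.

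Across the 16 labelled libraries, the genes whose log2 CPM ran most like that of CBX2 were IQSEC1 (Pearson r = 0.95), SNN (0.94) and CDKN2AIP (0.93), among 6241 genes with a mean of at least 50 counts. For PHF19 they were SEPT3 (0.88), PCNA (0.86) and PSMC3IP (0.85), for MTF2 NUDT4 (0.98), USP24 (0.97) and LUC7L3 (0.96), and for EZH2 HINT1 (0.92), NOM1 (0.83) and SHC1 (0.82). For SUZ12 they were KIF21A (0.90), GTF2A1 (0.90) and CDC40 (0.89). Among the members the highest r was that of PHF19 with CBX2, 0.75, and that of PHF19 with SUZ12 was -0.48. These values describe libraries that share cell line, treatment and depth, and carry no p.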

How the data were processed

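Newly made RNA was measured in 16 labelled libraries of human neuroblastoma lines, beside 2 unlabelled libraries for background. Groups and replicate numbers came from the sample titles. The authors deposited raw counts per gene symbol for each library, and the submitters' processing notes name HISAT, HTSeq, DESeq2 and the build hg38. RNA from labelled cells was thiol-modified with iodoacetate and captured on poly(dT), per the labels' protocols. How a read was judged converted, which annotation was used and whether strand was read is not stated in the labels or file headers, so overlapping genes are uncertain and a gene rich in T may be counted more fully. Summary lines of the counter were left out of totals and tests, and held 46.4% to 57.4% of reads without a feature in labelled libraries.

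Counts were tested with edgeR 4.0.16 in R 4.3.3: filterByExpr (12853 genes), trimmed-mean (TMM) factors, a group-means model of the 16 labelled libraries with 8 residual degrees of freedom, the quasi-likelihood test and Benjamini-Hochberg adjustment over all 12853 genes. CPM are counts scaled to a shared total over tested genes, with TMM factors. Changes are relative to the other genes, so a change common to all would not show. Intervals are 95%, and binomial intervals cover counting error only. Floors cover counting error of the group with 0 counts only, and take the count of the other group as exact. Levels per kb use the union of GENCODE v29 exons, and base content is summed over all GENCODE v29 transcripts of a gene. The alternatives were other scalings, filters, DESeq2 1.42.0, only the compared groups, a replicate block, GC and length offsets (splines with 5 degrees of freedom, for the 97.3% of genes with values) and each library left out. The test was checked on simulated counts. The members and gene lists were chosen with earlier results of these data known. All members were named in each comparison, and of each list up to 4 called genes with the smallest p. Sequences are from RefSeq. Some results are not reported here.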

Additional observations from a re-analysis of the deposited data

Results flagged for a closer look

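The fall of CBX2 after BRM014 differed between lines in a direct test of the 2 effects. The effect in SK-N-DZ minus that in KELLY was -0.82 on the log2 scale (SE 0.18, edgeR, adjusted p = 0.00165), with both BRM014 libraries below both DMSO libraries in each line. CBX2 after BRM014 was at 221 and 215 CPM in SK-N-DZ and 180 and 201 CPM in KELLY, against 528 and 594 CPM in SK-N-DZ and 321 and 234 CPM in KELLY with DMSO. The difference ranged from -1.07 to -0.51 over 17 alternatives, passed in 14 of them, and did not pass with GC and length offsets or without the second KELLY DMSO library.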

How the results depend on the processing

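Of 1716 values of members under the alternatives, 1643 kept their direction and side of the threshold, 47 lost a call, 18 gained one and 8 turned round; 103 uncalled values changed sign. The number of members called in IMR-32 was 1 instead of 2 with library totals, without the filter, with GC and length offsets (also with the replicate block) and on leaving out any library, where the range was 1 to 1. In KELLY it was 1 with library totals, without the filter or with only the compared groups, and 0 to 2 on leaving out libraries. For the difference between effects, KELLY minus IMR-32 gave 1 instead of 0 without the filter and 0 to 1 on leaving out libraries, SK-N-DZ minus IMR-32 gave 0 to 1, and SK-N-DZ minus KELLY gave 0 instead of 1 with GC and length offsets (also with the block) and 0 to 1. For DMSO levels in SK-N-DZ against IMR-32 leaving out libraries gave 1 to 3.

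The values that turned round did so with GC and length offsets, with and without the block: SUZ12 on the mean over lines, -0.0553 without and -0.0556 with the block, SUZ12 in KELLY against IMR-32, 0.0405 without and 0.0401 with it, PHF19 in SK-N-DZ against IMR-32, -0.0179 without and -0.0184 with it, and CBX2 there, -0.84 in both. The cause was not tested. Library totals moved the median of all genes to 0.17 in the comparisons of KELLY and of SK-N-DZ with IMR-32. Replicate numbers did not pair the libraries, with correlations of deviations from -0.04 to 0.01, and the replicate block alone changed no member's call. All genes called after auxin numbered 281 as fitted, 513 with only the compared groups and 124 to 139 on leaving out a library. Leaving out a library gave counts as low as 904 of 1650 in IMR-32, 859 of 1485 in KELLY and 1614 of 2498 in SK-N-DZ, and for differences 276 of 422 in KELLY minus IMR-32, 221 of 336 in SK-N-DZ minus IMR-32, 318 of 501 in SK-N-DZ minus KELLY, 131 of 250 in BRM014 minus auxin and 367 of 792 between SMARCA4-mAID and IMR-32. GC and length offsets changed the split of higher and lower genes to 206 and 204 in KELLY minus IMR-32, against 267 and 155, and to 228 and 206 in SK-N-DZ minus KELLY, against 209 and 292. Library totals changed it to 114 and 144 in BRM014 minus auxin, against 136 and 114, and to 2932 and 2286 in KELLY against IMR-32, against 2325 and 2770.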
